A study of Mus musculus with 4 samples.

Results

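A set of secreted inflammatory signals, the chemokines Ccl2, Ccl3, Ccl4, Ccl7, Ccl12 and Cxcl2 and the cytokines Il1a, Il1b and Tnf, were followed cell by cell through an inhibitor experiment on mouse brain. The 9 genes were chosen by symbol out of 31053 in the count matrices, and each symbol named a single gene. The animals were C57BL/6J males aged 90 days, and each of the 4 single-cell libraries was made from the whole brain of 1 animal after enzymatic dissociation. In 2 libraries no inhibitors were used. In the other 2 libraries, actinomycin D and triptolide (which block transcription) were present during perfusion, dissection and digestion, and anisomycin (which blocks translation) during dissection and digestion. All animals had the same strain, sex, age and digestion, and the meninges had been taken off as far as possible before dissociation. Cells were not sorted.

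Chemokines are small secreted proteins that draw leukocytes along a gradient by binding G-protein-coupled receptors. Ccl3 and Ccl4 draw in macrophages, monocytes and T cells, Ccl2, Ccl7 and Ccl12 call in monocytes through Ccr2, and Cxcl2 calls in neutrophils through Cxcr2. Interleukin 1 alpha and beta (Il1a, Il1b) and tumour necrosis factor (Tnf) are first-wave inflammatory cytokines. In myeloid cells most of these genes are induced within minutes to hours of a stimulus, and their promoters are classical targets of NF-kappaB and AP-1, while microglia at rest are known to carry Il1a RNA.

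On the GRCm38 genome (GENCODE vM21), the CC chemokines lay on chromosome 11. Ccl2 spanned chr11:82035571-82037453, Ccl7 chr11:82045712-82047525 and Ccl12 chr11:82101845-82103400, all on the plus strand. Ccl3 (chr11:83647844-83649355, minus strand) and Ccl4 (chr11:83662584-83664683, plus strand) were neighbours on opposite strands. Cxcl2 spanned chr5:90903871-90905938 on the plus strand. Il1a (chr2:129299610-129309972) and Il1b (chr2:129364570-129371139) lay side by side on the minus strand, and Tnf was at chr17:35199381-35202007 on the minus strand. Of all stretches of 98 bases in their transcripts, only those of Cxcl2 were also found in another gene: 73 of 2255 occurred in Cxcl3, so reads from those stretches could not be assigned to one gene.

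The 250 bases upstream of the start site were given by RefSeq (GRCm38.p6) for 6 of the 9 genes, and the entries for Ccl2, Ccl4 and Ccl7 were missing. The following 4 sequences are shown. They belong to a gene whose levels differed between the groups (Ccl3) and to 2 genes whose levels overlapped (Ccl12, Il1a). The other is from the gene seen without inhibitors alone (Cxcl2). Each is written on its gene's strand and ends at the base before the RefSeq start site. That site lies inside the GENCODE span given above for Cxcl2 and upstream of it for Ccl3. Capitals mark matches, on either strand, to the AP-1 site TGANTCA, to TATAAA or to the NF-kappaB consensus.
Ccl3, chr11:83649379-83649628, minus strand: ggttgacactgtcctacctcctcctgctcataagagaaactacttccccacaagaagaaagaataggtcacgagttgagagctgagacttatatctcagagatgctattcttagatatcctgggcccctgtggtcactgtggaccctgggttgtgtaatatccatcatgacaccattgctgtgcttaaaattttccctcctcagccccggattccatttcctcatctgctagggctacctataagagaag
Ccl12, chr11:82101595-82101844, plus strand: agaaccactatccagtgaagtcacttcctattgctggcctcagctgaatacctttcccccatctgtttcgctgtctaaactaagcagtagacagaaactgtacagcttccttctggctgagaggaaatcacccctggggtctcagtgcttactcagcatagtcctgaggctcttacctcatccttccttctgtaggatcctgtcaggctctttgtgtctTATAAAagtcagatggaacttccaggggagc
Cxcl2, chr5:90903649-90903898, plus strand: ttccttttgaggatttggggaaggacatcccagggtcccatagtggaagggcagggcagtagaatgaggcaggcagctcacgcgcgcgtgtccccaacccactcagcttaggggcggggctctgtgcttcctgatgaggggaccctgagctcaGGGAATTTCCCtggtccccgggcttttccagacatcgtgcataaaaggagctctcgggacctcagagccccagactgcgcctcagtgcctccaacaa
Il1a, chr2:129309973-129310222, minus strand: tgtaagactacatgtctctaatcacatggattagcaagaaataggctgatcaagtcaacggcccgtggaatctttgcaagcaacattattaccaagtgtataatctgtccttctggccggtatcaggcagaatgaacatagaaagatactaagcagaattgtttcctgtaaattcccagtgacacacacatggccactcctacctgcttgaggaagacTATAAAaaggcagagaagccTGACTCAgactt
Il1a had an AP-1 match at positions -12 to -6 and TATAAA at -32 to -27. Ccl12 had TATAAA at -31 to -26, as did Il1b, and Tnf had it at -29 to -24. Cxcl2 had 2 overlapping NF-kappaB matches from -97 to -87, and Ccl3 had no match to any of the 3. Of 32851 promoters of 250 bases, 6.75% held the AP-1 letters, 12.4% held TATAAA and 3.90% held the NF-kappaB consensus. These matches describe letters in a window and were not tested as binding sites.

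After filtering, 9861 cells with 20678078 UMIs (unique molecular identifiers, tags that mark single RNA molecules) were kept. The libraries held 2089 to 2810 cells each, with a median of 1438.5 to 1684 UMIs per cell. Cells were grouped into 14 classes by marker genes, and neither the 9 genes nor the immediate-early genes (Fos, Fosb, Jun, Junb, Egr1, Ier2, Atf3, Dusp1) were used in the clustering. All 7 microglial markers (among them P2ry12 and Tmem119) had UMIs in microglia-like cells of every library. Olfactory ensheathing-like cells came from replicate 1 of each group alone, and 45 barcode sequences of kept cells occurred in more than 1 library.

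The 9 genes were found mainly in the brain's myeloid cells. Microglia-like cells (3266) held 82.9% of their 4816 UMIs and macrophage/monocyte-like cells (162) held 13.1%, so that 96.0% fell in 2 of 14 classes. Within this, the genes divided. Il1a, Ccl4, Ccl3 and Ccl12 were mainly microglial, with 96.9%, 90.2%, 90.04% and 80.0% of their UMIs in microglia-like cells. Ccl7 and Cxcl2 were mainly from macrophage/monocyte-like cells, at 75.6% and 100%, as was Il1b at 59.2%. Ccl2 was split between microglia-like (44.6%) and macrophage/monocyte-like cells (38.6%). Tnf was rare, with 19 UMIs in 19 cells, all of them in the myeloid classes.

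**Figure D1:**
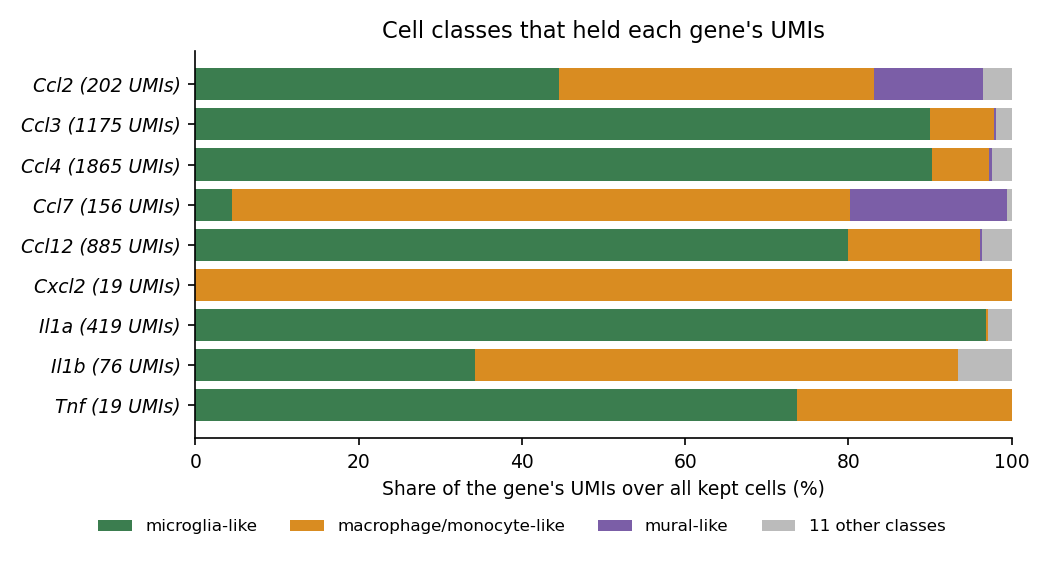
Each bar gives the share (%) of a gene's UMIs in microglia-like, macrophage/monocyte-like, mural-like and all other cells, over the 4 libraries together, with the gene's total UMIs beside its name. Ccl3, Ccl4, Ccl12 and Il1a bars are mostly microglia-like, Ccl7 and Cxcl2 bars mostly macrophage/monocyte-like, and Ccl2 and Ccl7 have a mural-like portion of 13.4% and 19.2%.

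Outside the myeloid classes, mural-like cells (the contractile cells of vessel walls) were the only class with over 4% of the UMIs of any of the 9 genes. They held 27 UMIs of Ccl2 and 30 of Ccl7, and these sat in few cells: 5 of 344 mural-like cells were positive for Ccl2 and 5 for Ccl7. One cell of no inhibitors replicate 2 held all 22 Ccl7 UMIs and all 9 Ccl2 UMIs of its library in this class. In inhibitors replicate 2 the class held 11 Ccl2 UMIs, 10 of them in 1 cell, and in inhibitors replicate 1 it held 0 of either gene. These UMIs were therefore found in both groups. One of the mural-like clusters (170 of the 344 cells) had the fibroblast genes Dcn and Lum as its leading genes. Of 95 fibroblast-like cells, 1 had a Ccl7 UMI and none had Ccl2.

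Astrocyte-, endothelial- and oligodendrocyte-like cells were taken as comparison classes for such shares. Whether their UMIs came from free RNA was not tested. Every cell was first reduced by random draws to 1000 UMIs (thinning). In any library without inhibitors, the share of positive cells in these classes then reached at most 1.20% for Ccl4 and 0.746% for Ccl3. With inhibitors the highest shares were 0.513% and 0.311%. For Ccl12 and Il1a the highest share in any of these classes was 0.602% and 0.481%. The Ccl12 value came from endothelial-like cells of inhibitors replicate 2, where 1 cell held 9 of the 12 Ccl12 UMIs. Median UMIs per cell were 1271 to 1469 in microglia-like cells and 1410 to 3114 in the 3 comparison classes. Thinning left out 208 of 1603 microglia-like cells without inhibitors and 281 of 1663 with inhibitors.

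In microglia-like cells the levels of Ccl3 and Ccl4 were several-fold higher without inhibitors in both libraries, a difference that did not pass the test, while the levels of Ccl12 and Il1a overlapped between groups. Levels are given in CPM, the UMIs of the gene per 1000000 UMIs of the class. Ccl3 was at 600.1 and 197 CPM in no inhibitors replicates 1 and 2, and at 64.4 and 61.4 in inhibitors replicates 1 and 2. Ccl4 was at 912 and 347 without inhibitors and at 159 and 55.7 with inhibitors. For both genes, each library without inhibitors was above each library with inhibitors, and the pair without inhibitors was itself far apart. The log2 fold change, no inhibitors over inhibitors, was 2.68 for Ccl3 (95% interval -0.75 to 6.11, edgeR adjusted p = 0.823) and 2.61 for Ccl4 (-0.91 to 6.14, edgeR adjusted p = 0.836). As folds these were 6.40 and 6.12, and their intervals, which carry the spread between replicates, include 0 on the log2 scale.

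Ccl12 stood at 147 and 146 CPM without inhibitors and at 111 and 198 with inhibitors. Il1a stood at 85.7 and 86.9 without inhibitors and at 95.2 and 82.4 with inhibitors. The group ranges overlapped for both. The log2 fold change was -0.06 for Ccl12 (95% interval -0.66 to 0.53) and -0.00 for Il1a (-0.32 to 0.31), with edgeR adjusted p = 0.985 and 0.997. The Il1a interval is the narrowest of the 5 genes tested here, and the Ccl12 interval is the next. Ccl2 was lower than all 4 genes, at 46.9 and 13.4 CPM without and 3.85 and 13.7 with inhibitors, and its groups overlapped (log2 fold change 1.69, edgeR adjusted p = 0.941).

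Il1b, Tnf and Ccl7 gave 26, 14 and 7 UMIs in all microglia-like cells and did not pass the filter on low counts there. Il1b had 17 of its UMIs in no inhibitors replicate 2, 8 of them in 1 cell, against 2, 2 and 5 UMIs in the other libraries. Tnf had 3 or 4 UMIs in every library. Cxcl2 was found in 0 of 3266 microglia-like cells, which allows a share of positive cells of up to 0.0919%.

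**Figure D2:**
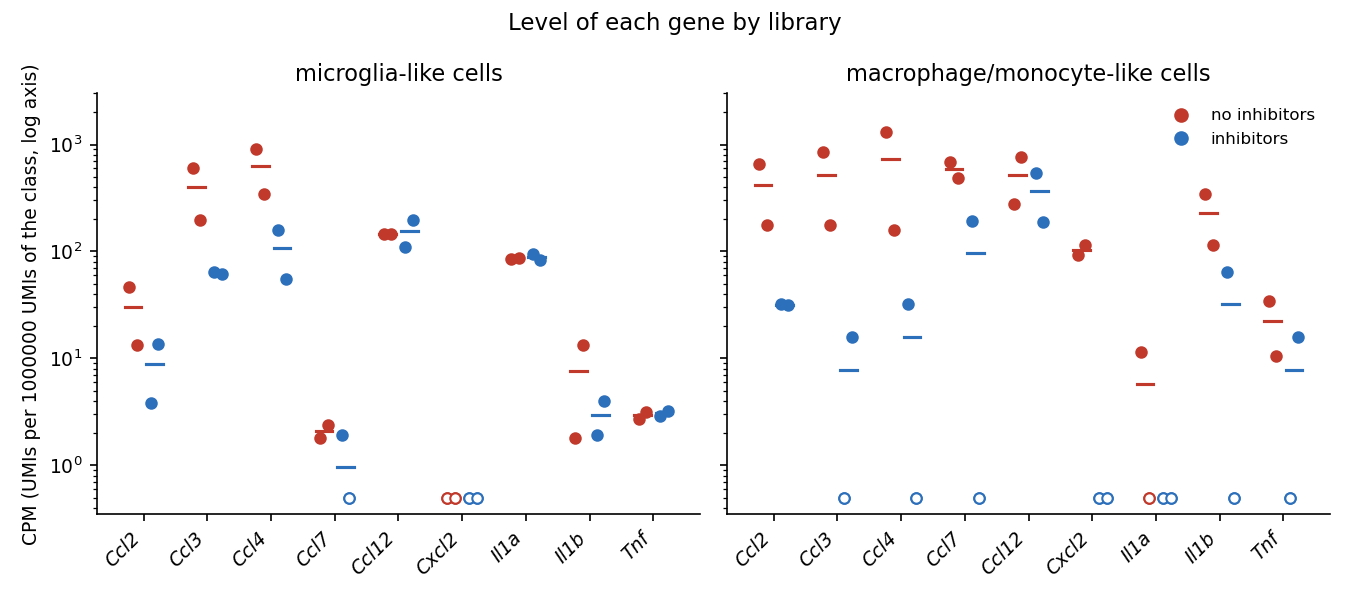
Level of each gene (CPM, log axis) in microglia-like cells (left) and macrophage/monocyte-like cells (right); filled points are libraries, short lines are group means (n = 2) and open points at the bottom mark libraries with 0 UMIs. In microglia-like cells, Ccl3 and Ccl4 without inhibitors (197 to 912) lie above the values with inhibitors (55.7 to 159), and the Ccl12 and Il1a points overlap.

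Of the 5 genes that passed the filter in microglia-like cells, edgeR called 0, and 0 had an unadjusted p under 0.05. Over all 8762 genes tested in this class 0.468% were called, or 41 genes, and 569 had an unadjusted p under 0.05. DESeq2 also called 0 of the 5. The median log2 fold change was 1.69 over the 5 genes and -0.00 over all genes. Both libraries without inhibitors were above both with inhibitors for 2 of the 5 (Ccl3 and Ccl4), against 14.3% of all genes tested. Single libraries moved the count. Without no inhibitors replicate 1, Ccl3 was called at a log2 fold change of 1.69. Without no inhibitors replicate 2, Ccl2 and Ccl3 were called. Without inhibitors replicate 2, Ccl2 was called, and without inhibitors replicate 1 there were 0 calls. With a quasi-likelihood fit that was not robust, Ccl2, Ccl3 and Ccl4 were called, among 53 of all 8762 genes.

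When cells, not UMIs, were counted, both libraries without inhibitors were again above both with inhibitors for Ccl3 and Ccl4. At 1000 UMIs per cell, Ccl3 was found in 12.5% and 6.61% of microglia-like cells without inhibitors (95% exact binomial intervals 10.1 to 15.3 and 4.93 to 8.65) and in 1.63% and 1.82% with inhibitors (0.784 to 2.97 and 1.00 to 3.04). Ccl4 was found in 85 of 654 cells and in 4.32% without inhibitors (10.5 to 15.8 and 2.97 to 6.04) and in 1.14% and 1.302% with inhibitors (0.460 to 2.33 and 0.626 to 2.38). The shares with inhibitors were alike in both animals and somewhat above those of the comparison classes in the same libraries. These intervals cover counting error only, not the spread between animals. Il1a was found in 7.19% and 7.69% without and in 9.61% and 7.94% with inhibitors, so that its shares were separate in the opposite direction. Ccl12 was found in 5.96% and 8.91% without and in 4.72% and 7.55% with inhibitors. The Ccl2 shares were separate in the direction of Ccl3 and Ccl4, with means of 1.76% without and 0.635% with inhibitors. Those of Tnf were separate in the direction of Il1a (means 0.144% and 0.277%), on 7 positive cells per group before thinning. Before thinning, the Ccl3 shares were 14.3%, 7.09%, 2.13% and 1.88% in the same order of libraries.

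A UMI of any of the 9 genes was present in 30.7% and 24.0% of microglia-like cells without inhibitors and in 16.3% and 17.8% with inhibitors, at 1000 UMIs per cell. The means were 27.4% ± 4.75 and 17.1% ± 1.10 (SD, n = 2 each). This difference of 10.3 percentage points had p = 0.333 in an exact two-sided permutation test, the smallest p that 2 against 2 libraries allow. With inhibitors, Il1a and Ccl12 had the highest shares of the 9 genes. Cells with at least 2 of the 9 genes made up 9.48% and 4.86% without inhibitors and 1.303% and 1.95% with inhibitors.

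**Figure D3:**
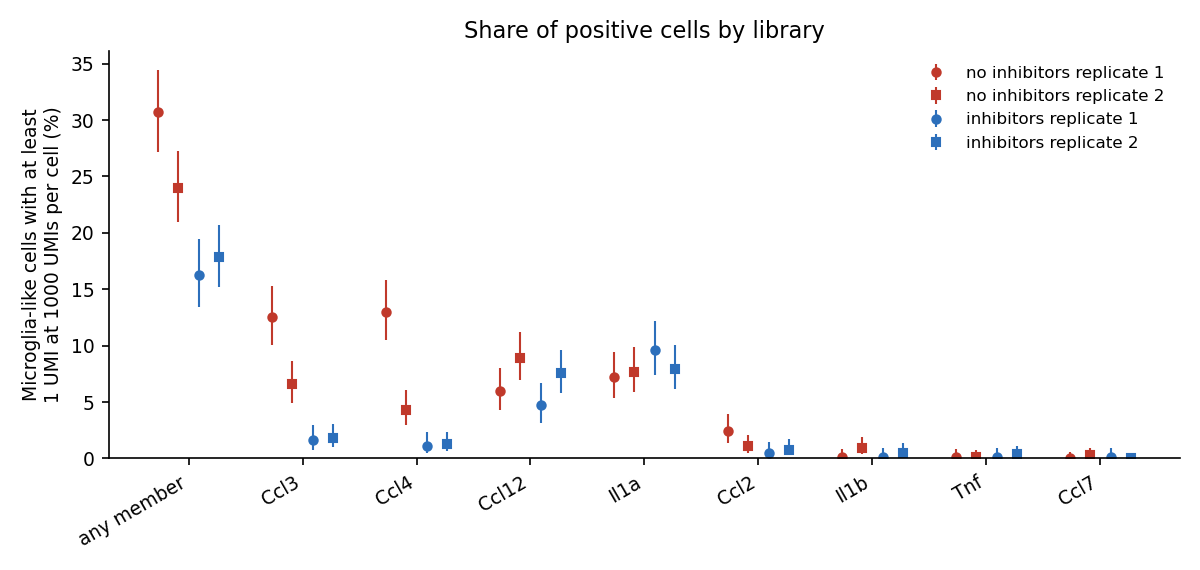
Share (%) of microglia-like cells with at least 1 UMI of each gene, or of any of the 9 genes, after thinning to 1000 UMIs per cell; points are libraries and bars are 95% exact binomial intervals (counting error only). For Ccl3 and Ccl4 the libraries without inhibitors (4.32% and above) lie above those with inhibitors (1.14% to 1.82%). Ccl12 and Il1a lie between 4.72% and 9.61% in every library, with Il1a lower in both libraries without inhibitors.

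The genes also differed in how their UMIs were spread over cells. Il1a was found thinly and evenly: in every library the median positive microglia-like cell held 1 UMI and the highest held 2 to 8. Ccl4 came in bursts. In no inhibitors replicate 1, 102 cells held 1010 Ccl4 UMIs, and 293 of these were in a single cell that also held 152 of the 665 Ccl3 UMIs. Together the 9 genes made up 11.7% of that cell's 3895 UMIs. In no inhibitors replicate 2 no cell held more than 50 of the 439 Ccl4 UMIs, and 46 cells were positive.

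With inhibitors, the few remaining Ccl4 UMIs were packed into very few cells. In inhibitors replicate 1, 7 cells were positive and 1 cell held 117 of 165 Ccl4 UMIs (70.9%), with a second cell holding 38. In inhibitors replicate 2, 11 cells were positive and 1 cell held 43 of 69 Ccl4 UMIs (62.3%) along with 47 of 76 Ccl3 UMIs. Cells with at least 5 Ccl4 UMIs numbered 52 and 23 without inhibitors and 2 and 3 with inhibitors. Ccl12 also had cells with many UMIs, but in both groups: the highest cell held 44 and 33 UMIs without and 26 and 46 with inhibitors.

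Leaving out, in each library, the 1 cell with the most UMIs of the 9 genes took Ccl4 to 649 and 308 CPM without inhibitors and to 46.2 and 21.02 with inhibitors. Ccl3 then stood at 465 and 188 without and at 40.5 and 23.4 with inhibitors. The log2 fold change of Ccl4 went from 2.61 to 3.89 and that of Ccl3 from 2.68 to 3.39, and neither was called by edgeR. This alternative was chosen after the data had been seen.

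**Figure D4:**
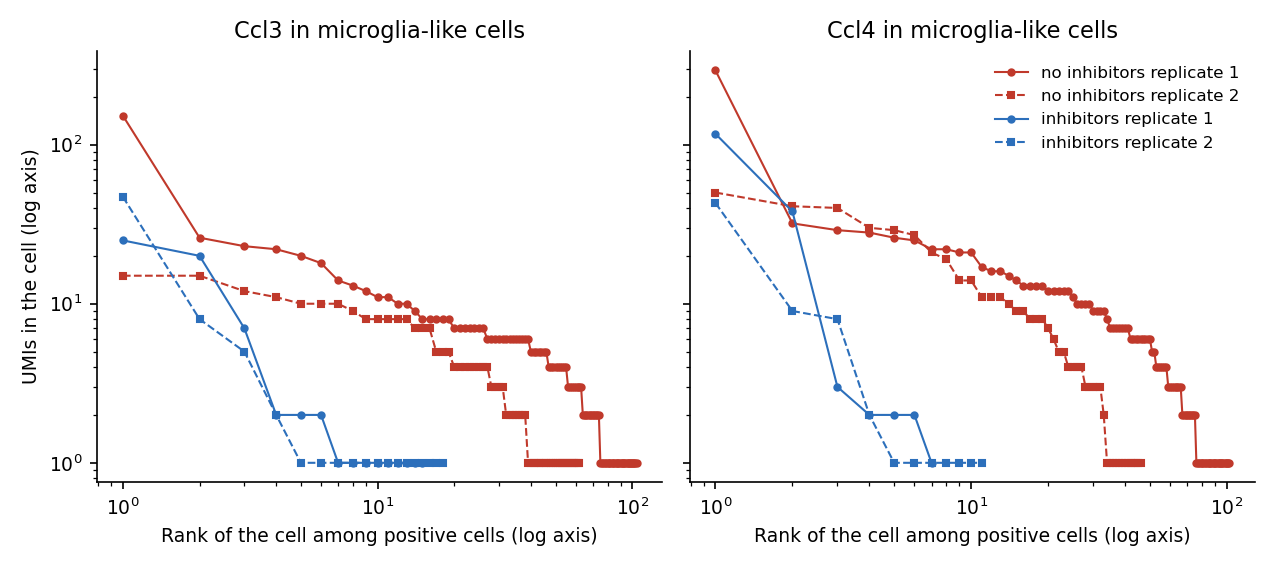
UMIs of Ccl3 (left) and Ccl4 (right) in each positive microglia-like cell, ranked from highest to lowest within its library (both axes log). Libraries without inhibitors have long series of cells with several UMIs (46 to 104 positive cells), and those with inhibitors have 1 to 3 high cells followed by cells with 1 to 3 UMIs.

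Ccl3 and Ccl4 were found in the same cells. At 1000 UMIs per cell, 43.5% and 56.3% of Ccl4-positive microglia-like cells without inhibitors (37 of 85 and 18 of 32) also held Ccl3, against 7.91% and 4.37% of Ccl4-negative cells. With inhibitors it was 6 of 7 and 3 of 10 Ccl4-positive cells, against 0.659% and 1.45% of Ccl4-negative cells. In every library the share was higher among Ccl4-positive cells. These are descriptions, and the cells of a library share their animal.

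For Il1a and Ccl12 the shares in Ccl4-positive cells lay on both sides of those in Ccl4-negative cells or rested on few cells. Il1a was found in 7.06% and 3.13% of Ccl4-positive cells without inhibitors, against 7.21% and 7.90% of Ccl4-negative cells. With inhibitors it was found in 0 of 7 and 1 of 10 Ccl4-positive cells, against 9.72% and 7.92%, so that its share was lower in Ccl4-positive cells in 3 of 4 libraries. Ccl12 was found in 5.88% and 18.8% of Ccl4-positive cells without inhibitors (5 of 85 and 6 of 32), against 5.98% and 8.46% of Ccl4-negative cells. With inhibitors it was found in 1 of 7 and 1 of 10, against 4.61% and 7.52%. The Ccl12 share was thus higher in Ccl4-positive cells in 3 of 4 libraries. Over both libraries without inhibitors, Ccl12 was found in 9.62% of Il1a-positive and 7.36% of Il1a-negative cells. This difference came from replicate 1, since in no inhibitors replicate 2 the shares were 8.77% and 8.92%. Over both libraries with inhibitors the order was opposite, with 6 of 120 Il1a-positive cells and 6.42% of Il1a-negative cells. There, the share in Il1a-positive cells was the lower one in replicate 1 and the higher one in replicate 2. The most of the 9 genes found in 1 microglia-like cell was 5 without and 4 with inhibitors.

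On average, cells with Ccl3 or Ccl4 also held more RNA of the immediate-early genes. These are transcription factors and feedback genes that are switched on first after a stimulus. At 1000 UMIs per cell, Ccl4-positive microglia-like cells without inhibitors had a mean of 10.8 and 10.4 UMIs of the 8 immediate-early genes, and Ccl4-negative cells had 3.89 and 2.75. For Ccl3 the means were 10.4 and 7.27 in positive cells and 3.98 and 2.78 in negative cells. Single cells without inhibitors varied. Before thinning, the cell with 293 Ccl4 UMIs had 10 immediate-early UMIs among its 3895, and the cell with 50 had 64 among its 2346. In the same libraries Ccl12-positive cells had 4.10 and 4.27, and Ccl12-negative cells 4.83 and 2.96. For Il1a the means were 5.34 and 4.60 against 4.74 and 2.95.

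With inhibitors, these means were below 1 in negative cells for all 4 genes. Ccl4-positive cells then had 2.43 (7 cells) and 0.700 (10 cells) immediate-early UMIs, and Ccl4-negative cells 0.417 and 0.364. The cell with 117 Ccl4 UMIs had 5 UMIs of Atf3 and 0 of Fos, and the cell with 43 Ccl4 UMIs had 3 of Atf3 and 0 of Fos. The cell with 38 Ccl4 UMIs had 12 UMIs of Junb.

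**Figure D5:**
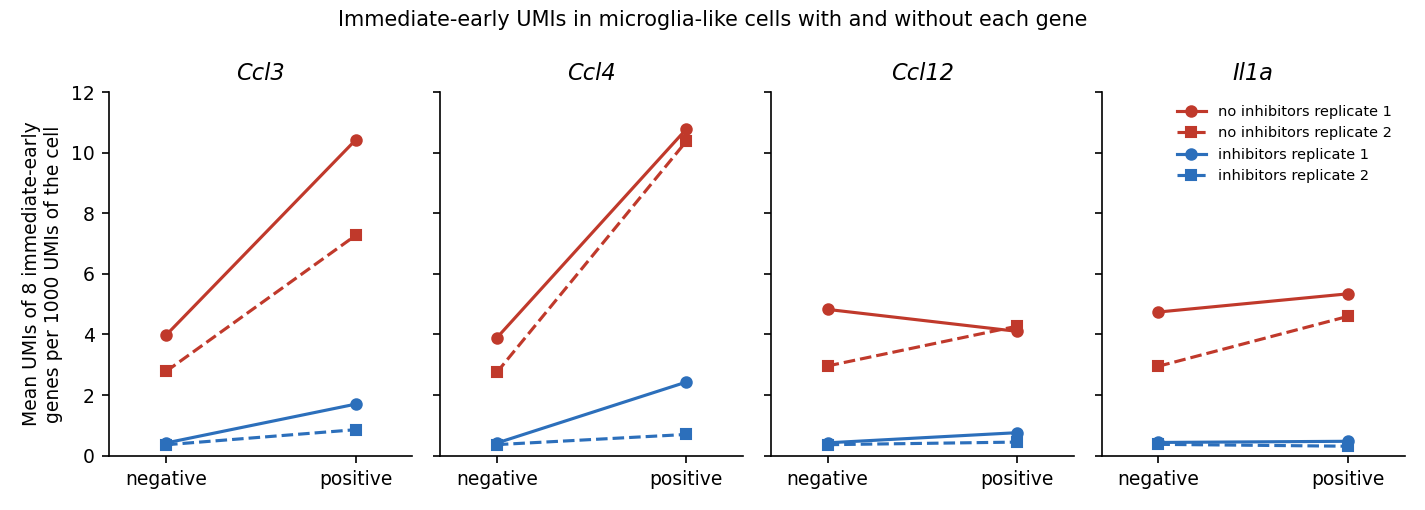
Mean UMIs of 8 immediate-early genes per microglia-like cell, at 1000 UMIs per cell, in cells without (negative) and with (positive) a UMI of each gene; lines join the 2 means of a library. Without inhibitors the Ccl3 and Ccl4 lines rise from 2.75 to 3.98 in negative cells up to 7.27 to 10.8 in positive cells, and the Ccl12 and Il1a lines stay between 2.95 and 5.34.

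One of 3 microglia-like clusters was led by Ccl4, Ccl3, the histone gene Hist1h1d, Fos, Rgs1, Atf3 and Socs3, although the 9 genes and the immediate-early genes had been left out of the clustering. It held 21.1% and 15.4% of microglia-like cells without inhibitors and 2.70% and 1.15% with inhibitors. Without inhibitors, these cells held 76.3% of the class's Ccl4 UMIs, 71.5% of its Ccl3 and 78.9% of its few Il1b UMIs, but 40.2% of Ccl12 and 33.2% of Il1a. With inhibitors the cluster had 30 cells, and the libraries differed. In inhibitors replicate 1 it held 93.9% of Ccl4 and 70.1% of Ccl3 UMIs, with 117 of the Ccl4 UMIs in 1 cell. In inhibitors replicate 2 it held 17.4% and 7.89%, and another microglia-like cluster, led by Trem2 and Cd48, held 75.4% and 81.6%. Without the cluster led by Ccl4 and Ccl3, the share of cells with any of the 9 genes differed by 5.37 percentage points instead of 10.3. Before thinning, Ccl3 was found in 8.26% and 4.19% of cells of the largest cluster without inhibitors and in 1.33% and 1.16% with inhibitors. In the cluster led by Trem2 and Cd48 it was found in 9.35% and 6.72% against 2.48% and 2.61%. Ccl4 was found in 8.26% and 2.20% against 0.762% and 0.831%, and in 12.9% and 4.62% against 0.621% and 0.870%.

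Macrophage/monocyte-like cells had higher levels than microglia-like cells in both libraries without inhibitors for 6 of the 9 genes (Ccl2, Ccl7, Ccl12, Cxcl2, Il1b and Tnf), but on few cells: 43 and 45 without and 32 and 42 with inhibitors. This order of the classes was not tested. Ccl2 stood at 657 and 179 CPM without inhibitors (57 and 17 UMIs) and had 2 UMIs in each library with inhibitors. Ccl3 had 74 and 17 UMIs without and 0 and 1 with inhibitors, and Ccl4 had 114 and 15 against 2 and 0. Ccl7 had 60 and 46 UMIs without and 12 and 0 with inhibitors. All 4 genes were therefore higher in each library without inhibitors than in each with them. Il1b was also separate, with 30 and 11 UMIs against 4 and 0. Ccl12 had 24 and 73 UMIs without and 34 and 12 with inhibitors, and its levels overlapped.

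In CPM pooled over each group, the ratio of no inhibitors to inhibitors was 12.8 for Ccl2 (95% counting interval 4.81 to 48.3), 6.13 for Ccl7 (3.37 to 12.2) and 7.11 for Il1b (2.58 to 27.3). It was 63.1 for Ccl3 (11.05 to 2520) and 44.7 for Ccl4 (12.1 to 373), which rest on 1 and 2 UMIs with inhibitors. Cxcl2 was found in 3 of 88 cells without inhibitors, with 8 and 11 UMIs per library, and in 0 of 74 cells with them. So few positive cells set no lower limit on its fold difference. The counting intervals take each UMI as independent. They are too narrow, since 1 cell held 49 of the 57 Ccl2 UMIs and 54 of the 60 Ccl7 UMIs of no inhibitors replicate 1. Another cell held 56 of the 73 Ccl12 and 27 of the 46 Ccl7 UMIs of no inhibitors replicate 2.

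Of the 5 genes that passed the filter in this class (Ccl2, Ccl3, Ccl4, Ccl7 and Ccl12), edgeR called 0. An unadjusted p under 0.05 was found for 2 of them (Ccl2 and Ccl3), against 58 of all 959 genes tested. DESeq2 called these same 2. Higher without inhibitors were called 0.626% of all 959 genes tested. The levels of 4 of the 5 were separate between groups, against 20.9% of all genes. Without no inhibitors replicate 1 there was 1 call (Ccl7), and without no inhibitors replicate 2 there were 5 (Ccl2, Ccl3, Ccl4, Ccl7 and Il1b). Without inhibitors replicate 1 there were 3 calls (Ccl2, Ccl7 and Il1b), and without inhibitors replicate 2 there was 1 (Ccl2). The difference of the effect between microglia-like and macrophage/monocyte-like cells was tested for 8 genes, of which 0 were called against 0.0398% of all genes. For Cxcl2 (0 UMIs in microglia-like cells) and Il1a (1 UMI in macrophage/monocyte-like cells) this difference could not be estimated. At an unadjusted p under 0.05 there were 3 (Ccl2, Ccl3 and Ccl4), against 279 of all 7545 genes. Each of the 3 had the larger change in macrophage/monocyte-like cells, where the levels with inhibitors rest on 4 UMIs or fewer.

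Within this class, Ccl2, Ccl7 and Ccl12 leaned to other cells than Ccl4 and Il1b. Cells were split by whether they had more UMIs of border macrophage markers (Mrc1, Pf4, Lyve1, Cd163, Ms4a7, F13a1) or of monocyte markers (Ccr2, Ly6c2, Plac8), and 81 of the 162 cells had more of the former and 57 more of the latter. Of 10 Ccl7-positive cells all 10 had more border macrophage markers, as had 19 of 20 Ccl12-positive and 10 of 11 Ccl2-positive cells. Of 13 Ccl4-positive cells 2 had more border macrophage and 8 more monocyte markers, and of 15 Il1b-positive cells 4 and 8. The other genes were less one-sided or rested on few cells. The counts were 7 and 5 of 13 cells for Ccl3, 3 and 2 of 5 for Tnf, and 2 and 1 of 3 for Cxcl2. The single Il1a-positive cell had more border macrophage markers. Nor was the split exclusive, since 1 cell of no inhibitors replicate 2 held 6 Ccl4 and 11 Ccl12 UMIs. This split was chosen after the data had been seen. At 1000 UMIs per cell, 4 of 6 Ccl2-positive cells without inhibitors also held Ccl7, against 2.99% of Ccl2-negative cells.

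Neutrophil markers were present in 7 cells of this class, of which 1 held Il1b, 1 held Ccl3 and none Cxcl2. Summed over the 6 markers (S100a8, S100a9 and others) their level was 6763 and 15514 CPM without inhibitors and 0 and 13394 with inhibitors. The 7 lymphocyte markers summed to 495 and 1020 CPM without and 512 and 628 CPM with inhibitors. In microglia-like cells they summed to 25.3 and 37.1 CPM without and 34.6 and 29.9 CPM with inhibitors. Leading genes of the class included H2-Aa, Cd74, Pf4, Cd209a and Mrc1. The 9 macrophage and monocyte markers of the class itself summed to 5853 and 4341 CPM without and 2767 and 3816 CPM with inhibitors, with 0 of 9 at 0 in any library, and so were separate between the groups in the same direction as Ccl2, Ccl3, Ccl4, Ccl7 and Il1b. The 6 erythrocyte markers were separate too, at 334 and 547 CPM without and 96.0 and 173 CPM with inhibitors, with 2 of 6 at 0 in each library without and 4 of 6 in each with inhibitors. The part of these markers in the results for the class was not tested.

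Summed over all cells of a library, Ccl3 stood at 155 and 45.1 CPM without inhibitors and at 15.1 and 15.2 with them. Ccl4 stood at 236 and 77.6 against 38.5 and 14.2. Ccl7 stood at 13.4 and 11.6 against 3.10 and 1.15, and Il1b at 7.41 and 4.76 against 1.33 and 0.960. In such sums, fewer cells of a type and less RNA per cell cannot be told apart. Of the 7 genes that passed the filter (all but Cxcl2 and Tnf), edgeR called 0, against 0.0363% of 13768 genes. At an unadjusted p under 0.05 there were 2, against 937 of all 13768 genes. These 2 were Ccl7 (log2 fold change 2.66, edgeR adjusted p = 0.0699) and Il1b (2.46, edgeR adjusted p = 0.160). DESeq2 called Ccl7 alone. The levels of 5 of the 7 were separate between groups, against 11.4% of all genes. Without no inhibitors replicate 1 the calls were Ccl3, Ccl4 and Ccl7, and without no inhibitors replicate 2 they were Ccl2, Ccl3, Ccl4, Ccl7 and Il1b. Without either library with inhibitors there were 0. In the other 7 classes tested, none of the 9 genes passed the filter.

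Outside the immediate-early genes, no gene of the pathway lists was called in microglia-like cells. Of 18 other chemokines 7 were tested and 0 called, among them Ccl6 (log2 fold change -0.29), Ccl9 (0.02) and Cxcl16 (0.04). Of 16 other cytokines 8 were tested and 0 called, with Tgfb1, Il16 and Il18 the highest of them. Of 15 receptors 6 were tested and 0 called. Cx3cr1 and Csf1r, which microglia carry at rest, had log2 fold changes of -0.08 and 0.03. Of 5 genes that process or oppose interleukin 1, 4 were tested and 0 called, with Pycard, Gsdmd and Nlrp3 the highest. Of 14 NF-kappaB factors and feedback genes 13 were tested and 0 called. Nfkbia, the inhibitor that NF-kappaB itself induces, had a log2 fold change of 0.28, Nfkb1 of 0.01 and Rela of 0.12 (edgeR adjusted p from 0.695 to 0.994). The feedback genes Nfkbid, Ier3 and Nfkbiz, of lower level, had larger values that were separate between the groups, and were chosen after their values were seen. Nfkbia and Rela were also separate in this direction, and Nfkb2 and Rel in the opposite one. Of all genes tested in this class, 14.3% were higher in both libraries without inhibitors than in both with them. Nfkbid was at 28.0 and 30.005 CPM without and 14.4 and 12.9 with inhibitors (log2 fold change 1.12, edgeR adjusted p = 0.0673). Ier3 was at 14.4 and 18.2 without and 2.89 and 8.88 with inhibitors (log2 fold change 1.43, edgeR adjusted p = 0.199). Nfkbiz was at 21.7 and 19.7 without and 13.5 and 9.69 with inhibitors (log2 fold change 0.88, edgeR adjusted p = 0.548).

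In the same fit, the immediate-early list had calls. Of its 8 genes 7 were tested and 4 were called higher without inhibitors, against 0.445% of all genes called higher. These were Junb (log2 fold change 2.49), Ier2 (2.92), Atf3 (2.51) and Dusp1 (5.58, edgeR adjusted p = 2.21e-17). Junb was at 1428 and 1124 CPM without and at 250.1 and 216 with inhibitors. Its replicates without inhibitors were closer to each other than those of Ccl3 or Ccl4. Fos (log2 fold change 7.61) and Jun (3.72) were not called, with edgeR adjusted p = 0.453 and 0.429. In macrophage/monocyte-like cells 5 of 5 tested were called higher (Fos, Jun, Junb, Ier2 and Dusp1), while 0 of the other lists' genes were called. These genes had been known to differ in these data when the list was chosen.

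The genes whose levels most resembled each of the 9 were found over 36 sums (9 classes by 4 libraries) by Pearson's r of log2 levels. For Ccl4 they were Bcl2a1a (r = 0.87), Clec5a (0.82) and Cst7 (0.82), with Ccl3 at 0.83. For Ccl3 they were Neurl3 (0.87), Mir142hg (0.87) and Osm (0.87). For Ccl12 they were Gm26740, Ly9 and Slamf9 (0.93 to 0.94), and for Il1a they were Il6, AC160562.1 and Gm30329 (0.95). For Ccl7 they were Tslp, Ifi204 and Mrc1 (0.79 to 0.80), with Ccl2 at 0.84, and Ccl2 in turn was most like Tslp (0.86), Fgl2 and Tgfbi. For Il1b they were Myo1g (0.84), Glipr1 and Clec4a1. The points share libraries, and each r mostly reflects which classes hold the gene.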

How the data were processed

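The authors deposited, for each of the 4 libraries, a matrix of raw UMI counts per gene and cell barcode (10x Genomics 3′ version 2 chemistry), made with Cell Ranger 3.0.0 on mm10 per the labels. Barcodes with at least 400 genes and at most 20% mitochondrial UMIs were kept (10067 of 12487), and 206 (2.05%) were removed as doublets by a score against simulated doublets. Cells were scaled to 10000, and 2000 variable genes, 30 principal components and 15 neighbours gave 22 Leiden clusters at resolution 1, named by at least 3 markers. Sums per library were tested in the 9 classes with at least 20 cells in every library, using edgeR 4.0.16 (filterByExpr, TMM, robust quasi-likelihood F test, 95% intervals from its degrees of freedom). A call needed both an absolute log2 fold change (no inhibitors over inhibitors) over 0.58 and a p, adjusted by Benjamini-Hochberg over all genes tested, under 0.05. DESeq2 1.42.0 and other settings were alternatives. Fits were tested on simulated counts. Shares and means per cell were taken after thinning to 1000 UMIs. Genes were named by rule: all 9, the called genes of each pathway list or its 3 highest in microglia-like cells, and the 3 most alike by Pearson's r for each of the 9 with at least 50 UMIs (log2 of CPM plus 1). One list gene that the rule names is not reported here. The 9 genes and the lists were chosen with earlier results of these data known. UMIs are counted at the 3′ end and are not scaled by length, and total depth was 5134359 to 7529804 UMIs per library. Replicate numbers 1 and 2 occur in both groups, and the labels do not say whether same-numbered libraries were processed together. Their deviations correlated at 0.03 to 0.07 across genes, and the main fit did not take the numbers as pairs. Shared processing by number cannot be told from these data. Replicates 1 kept 2207 and 2089 cells, replicates 2 kept 2755 and 2810, and olfactory ensheathing-like cells came from replicates 1 alone.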

Additional observations from a re-analysis of the deposited data

How the results depend on the processing

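The fit as reported called 0 of the 9 genes in all cells, in microglia-like cells and in macrophage/monocyte-like cells, and these counts moved with the settings. DESeq2 called 1 in all cells and 2 in macrophage/monocyte-like cells. Without a filter on low counts, 6 and 5 were called there. The non-robust fit called 3 in microglia-like cells. With the replicate number as a block, 2 were called in all cells, 2 in microglia-like cells and 4 in macrophage/monocyte-like cells. The labels do not say whether same-numbered libraries were paired. Leaving out 1 library gave 0 to 5 calls in all cells, 0 to 2 in microglia-like cells and 1 to 5 in macrophage/monocyte-like cells; the lone library is then assumed to vary like the other group. The cause was not tested. In microglia-like cells the 41 calls over all genes became 31 with DESeq2, 51 unfiltered, 53 in the non-robust fit and 54 with the block. In macrophage/monocyte-like cells DESeq2 called 8 genes. Over all genes, the 5 calls in all cells became 41 with DESeq2, 177 unfiltered, 11 in the non-robust fit, 34 with the block, 8 with the stricter cell filter or with doublets kept and 0 to 250 without 1 library. The 6 calls in macrophage/monocyte-like cells became 18 unfiltered, 14 with the block and 15 to 19 without 1 library. RLE scaling, the stricter cell filter, kept doublets and leaving out the cell with the most UMIs of these genes changed no count of calls among the 9 genes, and the calls on the difference between the 2 classes stayed at 0 in all 3 alternatives.

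Every log2 fold change of Ccl2, Ccl3, Ccl4, Ccl7 and Il1b stayed above 0 in all alternatives run. Those of Ccl12 and Il1a, near 0, changed sign. In all cells, Ccl12 went to -0.10 with doublets kept, -0.0767 without the highest cells, -0.43 without the cluster led by activation genes and -0.28 to 0.39 without 1 library, and Il1a to 0.0293 with doublets kept and -0.0762 to 0.0179 without 1 library. In microglia-like cells, Ccl12 ran from -0.41 to 0.45 without 1 library, and Il1a was at 0.0028 unfiltered, 0.0122 with the stricter cell filter, 0.0485 with doublets kept and -0.10 to 0.0933 without 1 library. In macrophage/monocyte-like cells, Ccl12 went to -0.0414 without the highest cells and -0.43 to 1.40 without 1 library.

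The difference in the share of microglia-like cells with any of the 9 genes was 13.9 percentage points at 1500 UMIs per cell, 5.37 without the cluster led by activation genes (an alternative added after seeing the data) and 6.96 to 13.7 without 1 library. The difference in the share of Ccl4-positive cells that held Ccl3 was -35.8 to 19.9 percentage points without 1 library, since with inhibitors it rests on 7 and 10 cells. The share of Tnf-positive cells, lower without inhibitors at 1000 UMIs, was higher by 0.0131, 0.00502 and 0.151 percentage points with no thinning, 500 and 1500 UMIs. Cxcl2 had no value in microglia-like cells.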
